A study of Homo sapiens with 44 samples.

Results

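The response to EZH2 knockdown was measured by RNA sequencing in 4 libraries labelled SUM149, out of 44 samples in the series. They were chosen by their labels: 2 libraries of cells transfected with a small interfering RNA (siRNA) against EZH2, called siEZH2, and 2 of cells transfected with a control siRNA. Both groups received 20 nM siRNA with a lipid reagent, and polyadenylated RNA was collected at 48 h as biological duplicates. The siRNA sequences, and whether siEZH2 was one duplex or a pool, were not stated in the labels or files. SUM149 is a human line from an inflammatory triple-negative breast cancer, a tumour type without oestrogen receptor, progesterone receptor and HER2. The same table holds 4 libraries labelled MDA-MB-231, another triple-negative line, treated in the same way, and these were used to test where the responses of the lines differed. The series carries other chromatin and RNA libraries that were not used here.

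EZH2 is the catalytic subunit of Polycomb repressive complex 2 (PRC2), which methylates histone H3 at lysine 27 and keeps developmental genes silent. EED and SUZ12 are the other core subunits, and accessory subunits such as JARID2, MTF2 and PHF19 guide the complex to CpG-rich promoters. In breast cancer EZH2 is also described as acting with transcription factors, among them the NF-kB subunits RELA and RELB, and the series title names an axis of EZH2 and NF-kB. NF-kB factors bind short sites upstream of cytokine, chemokine and survival genes.

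Expression was deposited by the authors after a variance-stabilising transformation, whose scale is close to log2 for genes with many reads and flatter for genes with few, called the log2-like scale. Changes are differences on that scale with the standard error (SE) of a limma fit, n = 2 libraries per group, and a gene was called at a Benjamini-Hochberg adjusted p under 0.05. Normalised counts were recovered from the same values. They corresponded to 17.5 and 25.4 M reads for the controls and 28.8 and 27.4 M reads for siEZH2. The p-values measure only the spread between duplicates. Over the genes tested, values correlated at 0.9972 between the control libraries, 0.9981 between the siEZH2 libraries and 0.9741 to 0.9759 between control and siEZH2 libraries. In bulk RNA, fewer cells of a type and less RNA per cell cannot be told apart.

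The line label was only partly borne out by marker genes. SUM149 is known as a basal-like line with E-cadherin, and several basal genes were present: KRT5 had 1015 and 1027 normalised counts in the controls, and KRT17 had 248 and 250. The basal regulator TP63 was at 0 in both control libraries, KRT14 was at 1.64 and 0, the tight junction gene CLDN3 at 0 and 1.12, and KRT19 at 26.1 and 39.4, against 4147 and 4155 in the MDA-MB-231 controls. The E-cadherin gene CDH1 had 116 and 102, against 24.5 and 23.8 in MDA-MB-231. Mesenchymal genes did not stand on one side of their MDA-MB-231 levels. Vimentin (VIM) had 62193 and 64843 against 35175 and 33519 in MDA-MB-231, and N-cadherin (CDH2) had 5064 and 5311 against 120 and 128. In the other direction CDH11 had 116 and 158 in the SUM149 controls against 609 and 610, and FBN1 68.8 and 67.5 against 352 and 297. Genes of this paragraph other than KRT5, KRT17, CDH11 and FBN1 were chosen after their values were seen. The hormone receptor gene PGR was at 0 in all 4 libraries and ESR1 did not pass 3.36. The libraries are therefore named by their label throughout, and SUM149 and MDA-MB-231 stand for the libraries so labelled.

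EZH2 lies on chromosome 7 at 148807257 to 148884321 of GRCh38, on the minus strand. Control libraries held 2563 and 2746 normalised counts of its mRNA, and siEZH2 libraries held 442 and 517. The groups did not overlap, and the mean was 5.54-fold lower, 479 ± 53 against 2654 ± 129 (SD, n = 2). It fell by 2.00 ± 0.07 on the log2-like scale (limma adjusted p = 4.8e-10). In MDA-MB-231 the change was -2.52, a line difference of 0.51 ± 0.10 (limma adjusted p = 0.00346), so the depletion was smaller in the libraries labelled SUM149. The difference in depletion cannot be told apart from the line in the line differences given for other genes. Its part in them was not tested.

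The knockdown was followed by changes in a large share of the transcriptome. Of 12356 genes tested, 7163 were called (58.0%), with 3631 higher (29.4%) and 3532 lower (28.6%). Most changes were small. The smallest called change was 0.12 and the median size of a called change was 0.33, while 221 called genes reached 1 on the log2-like scale, 172 of them higher and 49 lower. At 1.5-fold on that scale 822 genes rose (6.65%) and 380 fell (3.08%). The log2-like scale understates the fold change of low genes, and 2713 genes reached 1.5-fold when log2(normalised count + 1) was fitted instead. Each count of members given for a gene list has to be read against these shares, and the median change over all genes tested was 0.00 to 2 decimals.

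**Figure D1:**
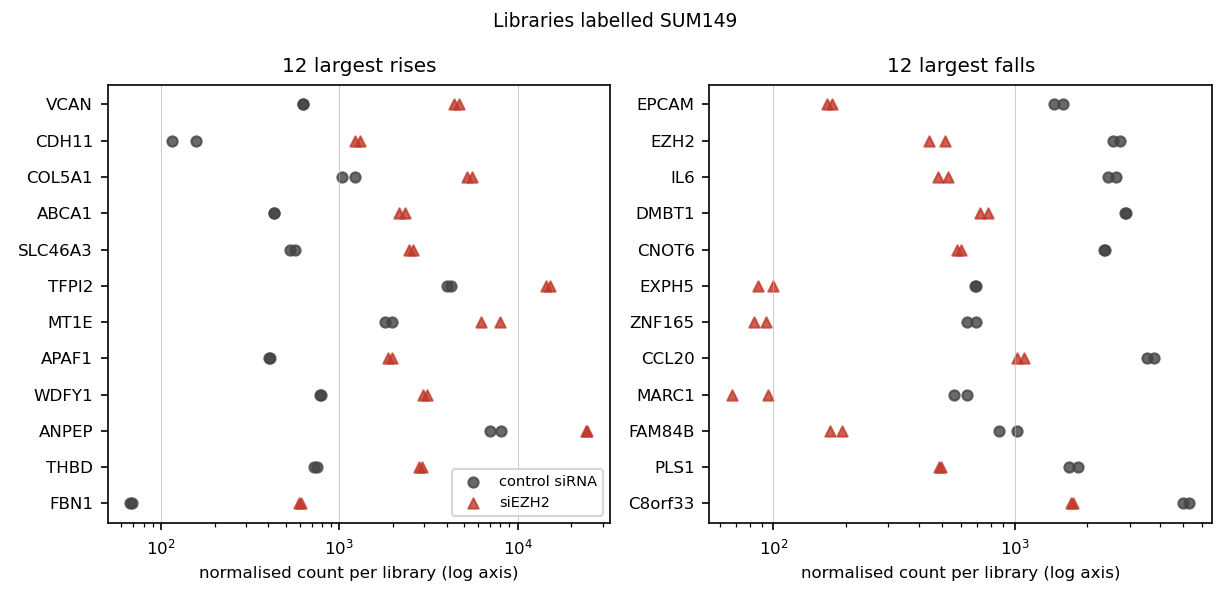
Normalised counts per library (log axis) of the 12 called protein-coding genes that rose most (left) and the 12 that fell most (right). Circles are the 2 control libraries and triangles the 2 siEZH2 libraries labelled SUM149. The genes were chosen by their change in these libraries, so a gap between the groups comes with the choice. Examples are FBN1, at 68.8 and 67.5 against 611 and 591, and EPCAM, at 1594 and 1460 against 175 and 166.

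Extracellular matrix and cell surface genes led the rises. VCAN, which encodes the matrix proteoglycan versican, had 623 and 629 normalised counts in the controls and 4421 and 4670 under siEZH2. The fold was 7.26, and the change was 2.45 ± 0.07 (limma adjusted p = 2.5e-10). CDH11, a cadherin of mesenchymal cells, went from 116 and 158 to 1311 and 1222 (9.25-fold, change 2.09). COL5A1, a chain of the fibrillar collagen type V, went from 1223 and 1030 to 5189 and 5574 (4.78-fold, change 2.03). FBN1, the microfibril protein fibrillin-1, was low in the controls, at 68.8 and 67.5, and reached 611 and 591, an 8.82-fold rise. None of these 4 genes, named for the size of their change, had a siEZH2 value within the control range.

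The other large rises had varied roles. ABCA1, which exports cholesterol from cells, rose 5.25-fold, and SLC46A3, a lysosomal transporter, rose 4.62-fold. APAF1, the scaffold of the apoptosome, rose 4.75-fold, from 402 and 407 to 1871 and 1975 normalised counts. TFPI2, a serine protease inhibitor of the matrix, rose 3.59-fold, and thrombomodulin (THBD), a surface inhibitor of coagulation, rose 3.87-fold. The ectopeptidase ANPEP, also called CD13, rose 3.22-fold to 24565 and 24118. WDFY1, an endosomal adaptor protein, rose 3.88-fold. MT1E, a metallothionein that binds zinc and copper, rose 3.75-fold with 7916 and 6249 counts under siEZH2, and reads can be shared among the near-identical metallothionein genes.

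Among the falls EPCAM, the epithelial cell adhesion molecule, changed most. It had 1594 and 1460 normalised counts in the controls and 175 and 166 under siEZH2, an 8.95-fold fall (change -2.16 ± 0.07, limma adjusted p = 2.5e-10). This fall was larger than that of EZH2 itself on the log2-like scale. CNOT6, a deadenylase of the CCR4-NOT complex, went from 2354 and 2374 to 600 and 576 (4.02-fold lower). EXPH5, an effector of the vesicle GTPase RAB27, was 7.41-fold lower and the zinc finger gene ZNF165 was 7.53-fold lower. MARC1 (now MTARC1), a mitochondrial reductase, was 7.38-fold lower, at 67.5 and 95.2 under siEZH2. DMBT1, a secreted scavenger receptor protein, was 3.85-fold lower, and PLS1, which bundles actin in microvilli, was 3.59-fold lower. FAM84B (now LRATD2) was 5.19-fold lower and C8orf33 2.98-fold lower. The cytokine gene IL6 and the chemokine gene CCL20 complete these 12 and are described with the other inflammatory genes.

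Other PRC2 subunits moved far less than EZH2. Of 13 subunits tested 3 rose and 7 fell, with a median change of -0.18. EED, which binds the methylated histone tail, had 1766 and 1773 normalised counts in the controls and 1465 and 1453 under siEZH2, a change of -0.24 ± 0.06 (limma adjusted p = 0.00214). SUZ12, the core scaffold, fell by 0.32 and the histone-binding subunit RBBP4 by 0.41. EZH1, the paralogue that can replace EZH2, had 725 and 822 against 661 and 750, groups that overlapped, with a change of -0.10 ± 0.08 (limma adjusted p = 0.309). RBBP7 and PHF19 did not pass either.

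The accessory subunits split by direction. JARID2, of the PRC2.2 form of the complex, went from 2035 and 1967 to 3036 and 2812, a rise of 0.49 ± 0.06 (limma adjusted p = 8.2e-06). In MDA-MB-231 its change was -0.16, and the line difference of 0.65 ± 0.08 passed (limma adjusted p = 1.1e-04). PHF1 rose by 0.35 and MTF2 by 0.21, while AEBP2 fell by 0.24, EPOP by 0.22 and LCOR by 0.18. The calls of MTF2, EPOP and LCOR were lost without siEZH2 replicate 2, at limma adjusted p = 0.0692, 0.0799 and 0.105, and that of LCOR also without control replicate 1 (limma adjusted p = 0.0809).

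Among 20 subunits of PRC1, the complex that reads the PRC2 mark and ubiquitinates histone H2A, 7 rose and 3 fell, and without siEZH2 replicate 1 4 rose. The share that rose, like their median change of 0.08, was near that of all genes. PHC1 rose 1.93-fold (change 0.44) and CBX7 1.66-fold (0.31), while CBX6 fell by 0.40 and CBX2 by 0.35. Of 15 genes that oppose Polycomb 3 rose and 2 fell, or 1 without any 1 of the 4 libraries. SMARCA2, an ATPase of the SWI/SNF remodelling complex, went from 848 and 782 normalised counts to 1614 and 1726, KMT2C, a histone H3 lysine 4 methyltransferase, rose by 0.63, and the acetyltransferase CREBBP rose by 0.32. KDM6B, which removes methylation from H3 lysine 27, went from 449 and 358 to 214 and 214, a fall of 0.53 ± 0.08 (limma adjusted p = 1.2e-04).

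Genes known as Polycomb targets did not move as a group, and most HOX genes were low or not detected. Of 27 genes described elsewhere as repressed by PRC2, 18 passed the filter on low values, of which 7 rose and 5 fell, with a median change of 0.10. TIMP2, a metalloproteinase inhibitor, went from 622 and 663 normalised counts to 1903 and 1717 (2.82-fold), and the WNT antagonist SFRP1 from 2631 and 2581 to 5662 and 5748 (2.19-fold). KLF4 was 2.10-fold lower and DKK1, another WNT antagonist, 1.52-fold lower. Only 13 of 39 HOX genes passed the filter, and of these 2 rose and 3 fell, with a median of -0.04, a share of calls below the 58.0% of all genes. HOXA10 went from 341 and 358 to 610 and 615 (change 0.55), HOXC11 rose by 0.32, and HOXC8 fell by 0.28 and HOXA3 by 0.19. On log2(normalised count + 1) HOXC11 and HOXA3 were not called (limma adjusted p = 0.0521 and 0.0974), and the count was 1 higher and 1 lower. HOXA3 was also lost without siEZH2 replicate 2 (limma adjusted p = 0.0624), which left 1 fall.

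Of 30 developmental transcription factors tested outside the HOX clusters, 14 rose and 6 fell, with a median of 0.13. The excess of rises rests on the scaling: after quantile normalisation 8 rose and 8 fell, and on log2(normalised count + 1) 10 rose and 8 fell. Without siEZH2 replicate 1 the counts were 9 and 3. A further 21 of the 51 listed did not pass the filter. FOXD1 went from 188 and 164 to 425 and 428 normalised counts, a gene listed at 0 in all 4 MDA-MB-231 libraries. FOXF2 rose 2.05-fold and SOX4 1.51-fold. FOXA1, a factor of luminal cells, went from 111 and 83.3 to 34.3 and 21.2, a 3.50-fold fall. It and GRHL1, which was also called lower, passed the filter through the control libraries alone.

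Integrins and laminins, the receptors and chains by which cells hold the basement membrane, rose throughout. All 20 integrin and laminin genes tested rose, with a median change of 0.72, and 15 of them by at least 1.5-fold. ITGA5, the fibronectin receptor chain, had 4763 and 5468 normalised counts in the controls and 15005 and 14395 under siEZH2, a 2.87-fold rise (change 1.48 ± 0.07, limma adjusted p = 1.9e-09). ITGA6, a laminin receptor chain, went from 6326 and 6521 to 14219 and 14567. LAMA3, a laminin chain, rose 2.06-fold. All 20 calls were also made without each library in turn and under each scaling tried.

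Among 22 genes of matrix turnover 20 rose and 1 fell, with a median of 0.58. MMP9, a gelatinase, went from 780 and 689 to 2647 and 2638 (3.60-fold), a gene at no more than 5.66 in any MDA-MB-231 library. MMP14, a membrane metalloproteinase, rose 3.45-fold, and PLAU, the urokinase plasminogen activator, rose 2.67-fold to 15596 and 15399. PLAT, the tissue plasminogen activator, had 6001 and 6232 against 7208 and 6750, a change of 0.18 that was not called without control replicate 1 or siEZH2 replicate 1 (limma adjusted p = 0.0956 and 0.131).

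**Figure D2:**
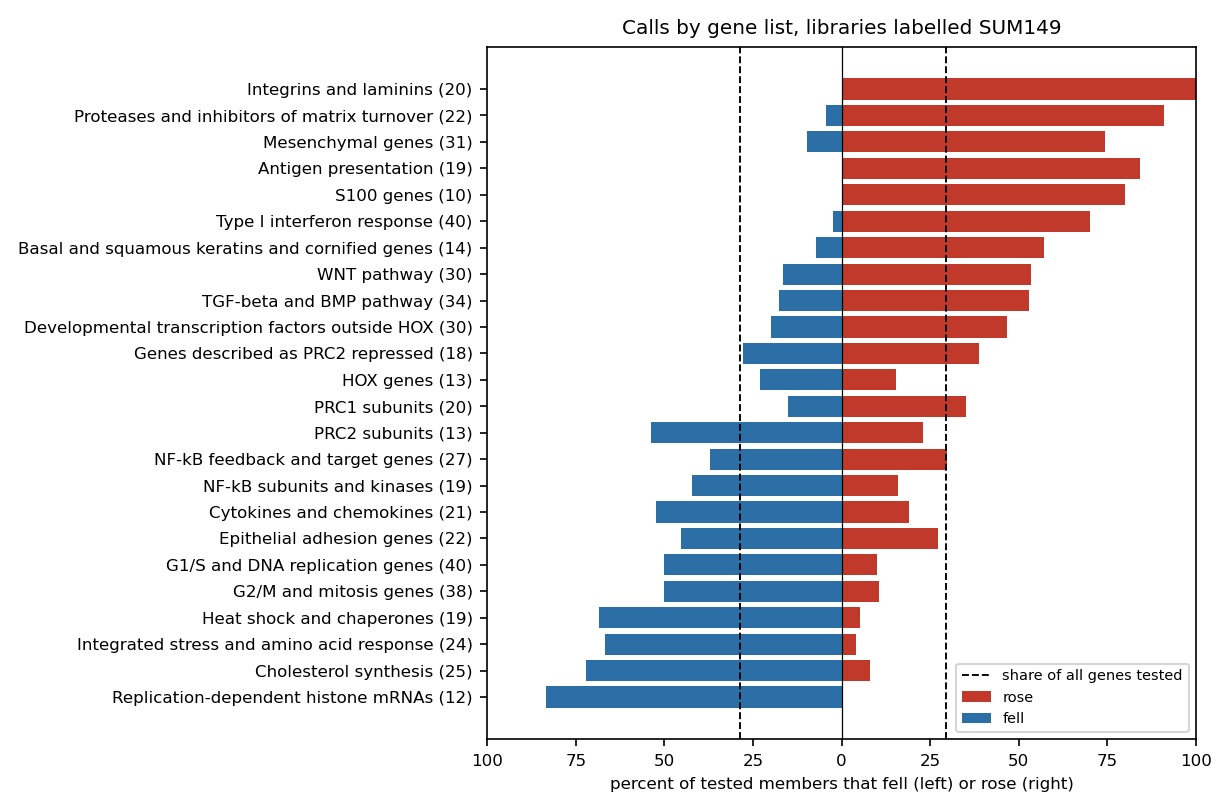
Percent of tested members that rose (right, red) or fell (left, blue) under siEZH2 in the libraries labelled SUM149, for 24 gene lists with the number tested in parentheses. Dashed lines mark the share of all genes tested, 29.4% higher and 28.6% lower; integrins and laminins reach 20 of 20 higher, and replication-dependent histone mRNAs 10 of 12 lower.

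Among 31 mesenchymal genes 23 rose and 3 fell, with a median of 0.41. TWIST2, counted among the rises, passed the filter through the siEZH2 libraries alone, and 22 of 30 rose without it. Beside CDH11, COL5A1 and FBN1, the type VI collagen chain COL6A1 went from 1408 and 1068 to 3667 and 3664 normalised counts. The transcription factor genes ZEB1 and SNAI2, chosen after their values were seen, went from 1218 and 1260 to 2417 and 2267 and from 1732 and 1801 to 4023 and 3894. Epithelial adhesion genes did not all fall: of 22 tested, 10 fell and 6 rose, with a median of -0.11. On log2(normalised count + 1) 3 of them rose. Plakophilin PKP2, a desmosome plaque protein, went from 819 and 878 to 207 and 187 (4.30-fold lower), and CLDN1, a tight junction protein, from 188 and 158 to 22.5 and 22.3 (7.72-fold lower). CLDN1 passed the filter through the control libraries alone. The desmosomal cadherin DSG2 rose from 2215 and 2287 to 4727 and 3865. CDH1 itself, at 116 and 102 against 141 and 162, was called higher by 0.21 (limma adjusted p = 0.0118).

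Of 14 keratins and other basal or squamous genes tested 8 rose and 1 fell, while 23 of the 37 listed did not pass the filter. KRT6A, a keratin of activated basal cells, went from 1273 and 1375 to 4356 and 4058 normalised counts (3.18-fold), with reads that can be shared with KRT6B and KRT6C. KRT17 rose 2.48-fold, the serpin gene SERPINB5 1.83-fold and KRT5 1.82-fold. On log2(normalised count + 1) 4 of the 14 rose and 1 fell, and the call of KRT5 was lost (limma adjusted p = 0.0934). KRT8, a keratin of simple epithelia, went from 4380 and 3956 to 7267 and 6810.

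Fibroblast markers overlap with this response. Their summed level, over 10 markers, was 7853 to 7906 normalised counts in the controls and 15188 to 15592 under siEZH2. Of the 5 tested 4 rose: FAP 2.47-fold, DCN 2.12-fold, COL6A3 1.83-fold and COL1A1 1.54-fold. The defining markers COL3A1, PDGFRA, LUM and THY1 were at 9.10 counts or less in all 4 libraries. DCN was not called on log2(normalised count + 1) (limma adjusted p = 0.0525). The 10 haematopoietic markers summed to 2063 to 2487 counts in the controls and 5234 to 5621 under siEZH2, mostly through CD68, a lysosomal protein, at 1980 and 2427 against 5386 and 5004. All 3 of these markers tested rose. CSF1R, the macrophage growth factor receptor, went from 39.2 and 30.3 to 111 and 126 (3.42-fold). CD14, a monocyte surface protein, went from 39.3 and 21.5 to 118 and 98.2 (3.56-fold), and it passed the filter through the siEZH2 libraries alone. CD3E, LYZ and SPI1 were at 0 in all 4 libraries and PTPRC did not pass 1.17. The 9 endothelial markers summed to no more than 11.8 counts in any library, with CDH5 and TEK at 0. KDR, at 0 in both controls and 2.94 and 2.02 under siEZH2, was the 1 endothelial marker called, and it lost its call when any 1 of the 4 libraries was left out. The summed fibroblast and haematopoietic markers were thus higher alongside the mesenchymal genes, and their part in the result was not tested.

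The series asks about NF-kB, and its subunits were read next. RELA had 2176 and 2316 normalised counts in the controls and 2265 and 2275 under siEZH2, a change of 0.01 ± 0.06 (limma adjusted p = 0.845). RELB, of the non-canonical arm, went from 553 and 440 to 281 and 293, a 1.73-fold fall (change -0.50 ± 0.08, limma adjusted p = 1.1e-04). NFKB1, the precursor of p50, went from 2923 and 2960 to 2336 and 2423 (change -0.28). REL and NFKB2 were not called, with changes of 0.15 (limma adjusted p = 0.0729) and -0.10 (limma adjusted p = 0.22). NFKB2 was called without control replicate 2 (limma adjusted p = 0.0258). In MDA-MB-231 RELB changed by -1.02 and NFKB1 by -0.63, larger falls by the test of the difference (limma adjusted p = 0.00443 and 0.00378).

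Over 19 NF-kB subunits, kinases and adaptors 3 rose and 8 fell, and without siEZH2 replicate 2 only 1 rose. TAB2, an adaptor of the kinase TAK1, went from 944 and 921 to 452 and 521 normalised counts (1.92-fold lower), and TRAF2, an adaptor of TNF receptors, fell 1.45-fold. IKBKE, a kinase of the innate immune arm, rose 1.59-fold. Of 27 feedback and target genes of NF-kB 8 rose and 10 fell, beside 29.4% and 28.6% of all genes, with a median of 0.00. Without control replicate 1 the falls numbered 6. ICAM1, an adhesion molecule for leukocytes, went from 1293 and 1337 to 2487 and 2283. The deubiquitinase gene CYLD rose by 0.65 and TNFAIP2 by 0.52. IER3, an early response survival gene, went from 10446 and 9876 to 5858 and 6576.

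Cytokine and chemokine genes showed the widest spread of any NF-kB-linked list, from -1.89 to 1.38. Of 32 listed 21 passed the filter, of which 11 fell and 4 rose, with a median of -0.16. With all genes above the lowest value in 1 library kept, 11 of 32 fell and 6 rose, with a median of -0.08. IL6, a cytokine of inflammation and STAT3 signalling, had 2453 and 2631 normalised counts in the controls and 529 and 482 under siEZH2, a 5.03-fold fall (change -1.89 ± 0.07, limma adjusted p = 3.3e-10). CCL20, a chemokine for cells with CCR6, went from 3540 and 3797 to 1097 and 1019 (3.47-fold lower). In the opposite direction CSF1, the growth factor of macrophages, went from 517 and 536 to 1828 and 1690 (3.34-fold higher). IL1B, the precursor of interleukin-1 beta, went from 3350 and 4141 to 9882 and 9233 (2.55-fold higher). No siEZH2 library lay within the control range for any of the 4 genes, which were named for the size of their change.

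**Figure D3:**
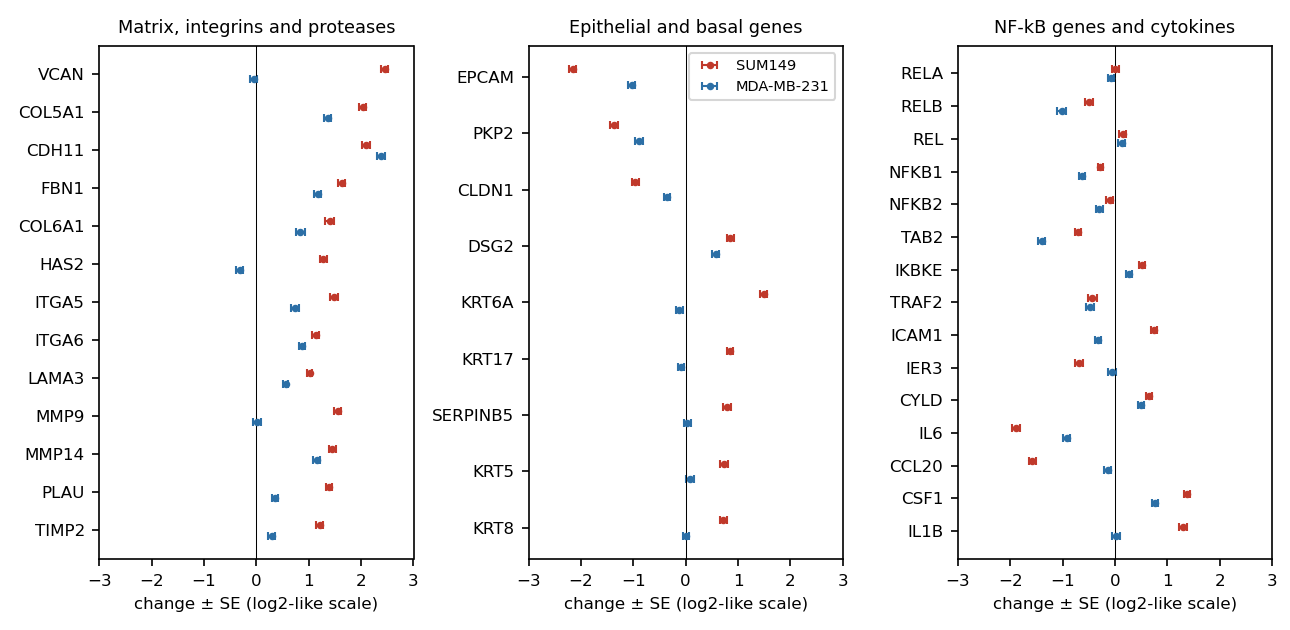
Change under siEZH2 on the log2-like scale with its standard error, for libraries labelled SUM149 (red) and MDA-MB-231 (blue), n = 2 libraries per group. Left, matrix, integrin and protease genes; middle, epithelial and basal genes; right, NF-kB genes and cytokines. VCAN stands at 2.45 in SUM149 and -0.05 in MDA-MB-231, and IL6 at -1.89 and -0.92.

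Upstream sequences were read for the genes of the 3 inflammatory lists, because a short kappa-B site is where NF-kB binds. Genes without an available RefSeq promoter, RELB, CSF1 and IER3 among them, were not searched. The kappa-B consensus was a fixed pattern: GGG, A or G, any base, A or T, C or T, C or T, CC. It was searched on both strands in the 250 bases before each RefSeq start site of GRCh38.p14. There 5.05% of 27305 promoters held at least 1 match. Of the called genes, CXCL1, CXCL2, CCL20, IL6, IL23A, NFKBIA, NFKBIZ, BIRC3, SDC4 and NFKB1, which fell, held a match. So did TNIP3, PTX3 and IRF1, which rose, and CXCL3, IL32, TNFAIP3, TNFRSF9, CFLAR, REL and TRAF3, which were not called. No match was found for CXCL8, CSF2, IL24, NFKBIB, NFKBID, SOD2, CD83, CHUK, TAB1, TAB2, TRAF2 and TBK1, which also fell. Nor was there one for IL1A, IL1B, BCL3, TNFAIP2, TNFAIP8, CYLD, ICAM1, IKBKG, TRAF1 and IKBKE, which rose. More genes of these lists were called lower than higher, and no test was made. The windows of IL6, CCL20 and NFKB1, which fell, and of IRF1 and PTX3, which rose, are shown with the match in capitals, 5′ to 3′ on the strand of the gene. IRF1 and PTX3 were chosen after their values were seen. IRF1, a transcription factor of the interferon response, had 727 and 795 normalised counts against 920 and 976, and PTX3, a secreted pattern recognition protein, 234 and 243 against 322 and 343.
IL6 (chr7:22727102-22727161, plus strand): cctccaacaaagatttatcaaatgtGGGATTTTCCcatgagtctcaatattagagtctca
CCL20 (chr2:227813738-227813797, plus strand): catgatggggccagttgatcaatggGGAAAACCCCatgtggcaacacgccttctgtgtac
NFKB1 (chr4:102501285-102501344, plus strand): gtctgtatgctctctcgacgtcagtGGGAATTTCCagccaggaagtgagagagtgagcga
IRF1 (chr5:132490789-132490848, minus strand): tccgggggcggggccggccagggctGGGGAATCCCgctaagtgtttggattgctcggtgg
PTX3 (chr3:157436728-157436787, plus strand): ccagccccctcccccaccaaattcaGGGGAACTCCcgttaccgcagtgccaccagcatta

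These 5 matches start 49 to 97 bases before the start site. IL1B, ICAM1 and CSF2 had no match in this window, which says only that these letters are not there. A match is a description of the sequence, not a bound site. The share of promoters with a match was 6.1% among genes higher by at least 1.5-fold, 6.0% among those lower by as much and 5.9% among all genes tested that had a promoter in the table.

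CpG content, which marks the promoters that PRC2 is known to occupy, was compared in the same windows. The ratio of observed to expected CpG had a median of 0.77 in 655 genes higher by at least 1.5-fold, 0.82 in 282 genes lower by as much and 0.83 in 9903 genes tested. A ratio under 0.4 was found in 17.4% of the higher genes, 7.8% of the lower genes and 9.2% of all. The genes that rose thus held a larger share of CpG-poor promoters, given as a description with no test. Of the largest rises and falls with a window in the table, IL6 (0.30), DMBT1 (0.31) and CCL20 (0.22), which fell, had ratios under 0.4. None of the largest rises did. Among these VCAN had the lowest ratio, 0.52 with 12 CpG in 250 bases, and COL5A1 stood at 0.85 with 29. The last 100 bases before their start sites are shown for this contrast, with CpG in capitals.
VCAN (chr5:83471644-83471743, plus strand): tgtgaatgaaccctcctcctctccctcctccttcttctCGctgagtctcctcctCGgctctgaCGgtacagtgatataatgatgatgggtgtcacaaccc
COL5A1 (chr9:134641703-134641802, plus strand): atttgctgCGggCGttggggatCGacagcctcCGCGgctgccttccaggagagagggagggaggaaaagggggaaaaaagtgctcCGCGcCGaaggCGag

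Interferon response and antigen presentation genes rose. Of 40 interferon response genes tested 28 rose and 1 fell, with a median of 0.29. DDX60, an antiviral helicase, went from 201 and 203 normalised counts to 721 and 766 (3.68-fold), and its paralogue DDX60L rose 2.67-fold. PARP9 rose 2.36-fold and SAMD9, an antiviral factor, 2.18-fold. Of 19 antigen presentation genes 16 rose and 0 fell, with a median of 0.29. ERAP2, which trims peptides for MHC class I, went from 863 and 921 to 3247 and 3340 (3.69-fold), and the chaperone calnexin (CANX) from 18139 and 19070 to 50820 and 49729 (2.70-fold). NLRC5, the transactivator of MHC class I genes, rose 2.68-fold and HLA-E 1.78-fold, with reads that can be shared among HLA genes. Without 1 library at a time 11 to 14 antigen presentation genes rose. Both lists rose in MDA-MB-231 too. There 34 interferon response genes rose and 1 fell, with a median of 0.43, and 15 antigen presentation genes rose and 0 fell.

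Growth factor, WNT and TGF-beta genes changed in both directions. Of 30 WNT genes 16 rose and 5 fell, with a median of 0.23. DKK3 and TCF7, counted among the rises, passed the filter through the siEZH2 libraries alone, and 14 of 28 rose without them. WNT5A, a non-canonical ligand, went from 7436 and 6977 to 18455 and 18585 normalised counts (2.57-fold), WNT5B rose 4.41-fold and the beta-catenin gene CTNNB1 1.83-fold. Of 34 TGF-beta and BMP genes 18 rose and 6 fell. LTBP1, which tethers latent TGF-beta to the matrix, rose 3.30-fold and SMAD5, a mediator of BMP signals, 2.64-fold. The ligand gene TGFB2 went from 6317 and 6375 to 2579 and 2592, and GREM1, a BMP antagonist, fell 2.20-fold.

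In the Notch pathway 8 of 14 rose and 3 fell, and after quantile normalisation 5 rose. The ligand gene JAG1 rose 1.88-fold, RBPJ, the DNA-binding partner of Notch, 1.78-fold and the target HES1 2.12-fold, while NRARP, another target, was 3.30-fold lower. Among 29 EGFR ligands and ERK feedback genes 11 rose and 6 fell. The ligand AREG fell 3.17-fold, with control libraries apart at 4094 and 2638 and siEZH2 libraries at 1104 and 1023. NRG1 went from 747 and 806 to 279 and 212, whereas EPGN rose 1.82-fold and the ERK phosphatase DUSP6 went from 1482 and 1441 to 3198 and 3236. Of 12 AP-1 genes 5 fell and 2 rose. JUND was 3.12-fold lower, MAFK 2.11-fold and MAFG 1.58-fold.

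Among 25 cholesterol synthesis genes 18 fell and 2 rose, with a median of -0.32. INSIG1, a sterol sensor of the endoplasmic reticulum, went from 5042 and 5472 normalised counts to 2559 and 2716 (1.99-fold lower). The enzyme genes DHCR7, HMGCS1 and SQLE fell 1.88-fold, 1.64-fold and 1.56-fold. ABCA1, the cholesterol exporter named among the largest rises, moved in the opposite direction.

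Genes of the integrated stress response and amino acid supply mostly fell, 16 of 24 against 1 rise, with a median of -0.32. ATF3, a stress transcription factor, went from 287 and 358 to 38.0 and 50.5 (7.28-fold lower). SLC7A11, the cystine transporter, went from 3243 and 3117 to 1269 and 1318, the asparagine synthetase gene ASNS fell 1.85-fold and MTHFD2, of mitochondrial folate metabolism, 1.72-fold. Among 19 heat shock and chaperone genes 13 fell and 1 rose. The mitochondrial chaperone HSPD1 went from 51232 and 52456 to 29355 and 29890, CHORDC1 fell 1.68-fold and HSPA4L 1.71-fold. The small heat shock gene HSPB1 was the 1 that rose, 1.61-fold.

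Hypoxia and glycolysis genes had no common direction, with 11 of 27 higher and 7 lower. VEGFA, the angiogenic growth factor, went from 5611 and 5717 to 11647 and 11559 normalised counts, CA12 rose 2.16-fold and HK1 1.56-fold, while LDHA, lactate dehydrogenase A, fell 1.64-fold. Of 10 S100 genes 8 rose and 0 fell, among them S100P (2.00-fold), S100A6 (1.55-fold), S100A3 (3.10-fold) and S100A10 (1.46-fold). In MDA-MB-231 8 S100 genes also rose and 0 fell.

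Cell cycle genes fell modestly. Among 40 genes of S phase entry and replication 20 fell and 4 rose, with a median of -0.13. The polymerase gene POLA1 went from 2555 and 2624 to 1292 and 1305 normalised counts, MCM3, a subunit of the replicative helicase, fell 1.78-fold and CDK2 1.70-fold, but GINS1 rose 1.99-fold. Of 38 mitotic genes 19 fell and 4 rose, with a median of -0.16. Without siEZH2 replicate 2 of SUM149 11 fell and 5 rose. BIRC5, or survivin, went from 5528 and 5498 to 3010 and 2867, KIF2C fell 1.38-fold and CCNB1 1.37-fold, and CKS1B rose 1.43-fold. Of 12 replication-dependent histone mRNAs 10 fell and 0 rose, against 6 falls on log2(normalised count + 1). HIST1H4C went from 10512 and 12651 to 5872 and 7548, and HIST1H2BK, HIST1H4H and HIST1H3A fell 1.46-fold, 1.43-fold and 1.34-fold. Most such mRNAs lack a poly(A) tail and come from near-identical genes, so their counts in polyadenylated libraries are uncertain.

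Of 14 G1 cyclins, CDKs and inhibitors 5 rose and 3 fell. CDKN2C, an inhibitor of CDK4 and CDK6, rose 2.53-fold, CCND3 1.58-fold and RB1, the retinoblastoma gene, 1.49-fold, and CCND1 fell 1.42-fold. Among 20 pro-apoptotic genes 8 rose and 4 fell. Beside APAF1, BMF went from 56.0 and 77.6 to 202 and 241, the death receptor gene FAS rose 2.07-fold, and PMAIP1, or NOXA, fell 2.19-fold. Of 7 survival genes 2 rose and 2 fell. XIAP, a caspase inhibitor, rose 1.76-fold, BIRC5 fell as given above, and BCL2L1 (0.19) and BCL2L2 (-0.17) changed little. The call of BCL2L1 was lost without control replicate 1 (limma adjusted p = 0.0715), and that of BCL2L2 without control replicate 2 or siEZH2 replicate 1 (limma adjusted p = 0.0873 and 0.163).

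Among 12 genes of DNA methylation 4 rose and 4 fell. TDG, the glycosylase that completes demethylation, went from 1507 and 1499 to 574 and 610 normalised counts, while TET1 rose 2.32-fold and TET2 1.62-fold. MBD3 was called lower by 0.43, but its control libraries stood apart at 3235 and 1940 against 1791 and 1794. Without control replicate 1 its change was -0.10 (limma adjusted p = 0.416). In the microRNA and siRNA machinery 3 of 13 rose and 5 fell, the latter 3 without siEZH2 replicate 2 and after quantile normalisation. AGO4, an Argonaute protein, went from 55.7 and 85.6 to 501 and 506 (7.13-fold), TNRC6C rose 3.06-fold and TNRC6B 1.32-fold, and TNRC6A fell 1.23-fold.

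The responses of the lines were then compared. In MDA-MB-231 6990 of all genes tested were called (56.6%), 3636 higher (29.4%) and 3354 lower (27.1%). Of the genes higher in the libraries labelled SUM149, 2463 were also higher in MDA-MB-231 (67.8% of the SUM149 list and 67.7% of the other), and 2323 were lower in both (65.8% and 69.3%). Of the genes higher in SUM149 3.42% were lower in MDA-MB-231, and of those lower in SUM149 2.01% were higher there. The lines have controls of their own. The response itself differed between lines, by the interaction term of the limma fit, for 2662 genes (21.5%), 1381 with the higher and 1281 with the lower change in SUM149. At 1.5-fold these were 286 higher (2.31%) and 187 lower (1.51%). Of the 2662, 1892 were called in SUM149, 1270 with the larger change there, and 195 were called in both lines in opposite directions. Without siEZH2 replicate 2 of SUM149 the lower count was 832, and on log2(normalised count + 1) it was 827.

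**Figure D4:**
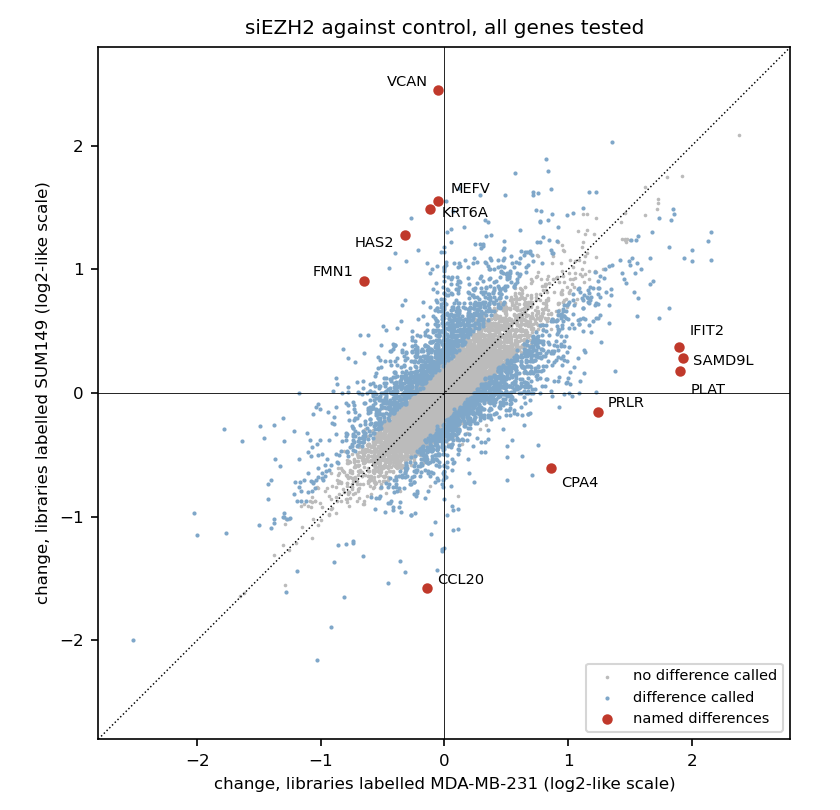
Change under siEZH2 on the log2-like scale in libraries labelled MDA-MB-231 (x axis) and SUM149 (y axis), 1 point per gene tested, with the dotted line at equal change. Blue points are the 2662 genes whose change differed between lines by the limma interaction term, and red points the named genes among the 6 largest differences in each direction, from VCAN (2.50) to PLAT (-1.73).

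VCAN had the largest difference, 2.50 ± 0.10 (limma adjusted p = 1.7e-08). It rose 7.26-fold in SUM149 and stood between 13.6 and 24.8 normalised counts in all MDA-MB-231 libraries. HAS2, a hyaluronan synthase, went from 1124 and 1288 to 3370 and 3232 in SUM149 and from 158 and 133 to 86.8 and 81.3 in MDA-MB-231, a difference of 1.61. FMN1, an actin-nucleating formin, rose 2.19-fold in SUM149 and fell by 0.65 in MDA-MB-231 (difference 1.56). KRT6A and MEFV, which encodes the inflammasome protein pyrin, differed by 1.62 and 1.60. MEFV went from 85.8 and 111 to 674 and 653 in SUM149, and both genes were near 0 in MDA-MB-231, where a fall could not be measured.

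In the other direction PLAT differed by -1.73, going from 2833 and 2785 to 10779 and 11831 in MDA-MB-231. CPA4, a carboxypeptidase, went from 499 and 504 to 272 and 239 in SUM149 and from 639 and 673 to 1382 and 1392 in MDA-MB-231 (difference -1.47, limma adjusted p = 4.2e-07). PRLR, the prolactin receptor, was not called in SUM149 (88.0 and 76.9 against 56.6 and 64.4) and went from 103 and 71.8 to 497 and 426 in MDA-MB-231 (difference -1.39). SAMD9L (-1.65) and IFIT2 (-1.54), both interferon response genes, were low in SUM149, where IFIT2 went from 4.91 and 3.38 to 25.5 and 26.3. On log2(normalised count + 1) their differences were -0.07 (limma adjusted p = 0.884) and 0.19 (limma adjusted p = 0.617), so neither held on that scale. CCL20 (-1.44) was at 1.69 counts or less in MDA-MB-231 and was not called on that scale either (-0.60, limma adjusted p = 0.184).

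By list, the lines differed in mitotic genes, among others. In SUM149 19 of 38 fell and 4 rose, against 7 and 13 in MDA-MB-231, and the difference was called for 17, each lower in SUM149, beside the 10.4% of all genes. Without siEZH2 replicate 2 of SUM149 the difference was called for 7. Among integrins and laminins 13 of 20 had the higher change in SUM149 and 1 the lower, beside 11.2% and 10.4% of all genes, and among proteases and their inhibitors 13 and 6 of 22. Both lists mostly rose in MDA-MB-231 too. There 17 integrin and laminin genes rose and 2 fell, with a median of 0.48, against 0.72 in SUM149. Of the proteases and inhibitors 15 rose there and 1 fell, with a median of 0.35, against 0.58. Among 31 mesenchymal genes 16 had the higher change in SUM149 and 7 the lower. Of 40 interferon response genes 3 had the higher change there and 12 the lower, but 4 and 0 on log2(normalised count + 1). Cholesterol genes differed in 8 of 25 cases, each lower in SUM149, and in 5 without siEZH2 replicate 2. For replication genes the difference was higher in SUM149 in 10 of 40 cases and lower in 0, but in 5 without siEZH2 replicate 1 and 6 without siEZH2 replicate 2. Of these 40 genes 28 fell in MDA-MB-231, with a median of -0.26, against 20 in SUM149, with a median of -0.13. DUSP6 (1.47), IL1A (1.38, chosen after its values were seen), WNT5A (1.28), IL1B (1.28), ICAM1 (1.07) and HES1 (1.05) were among the named genes with a higher change in SUM149, and AREG (-1.36), NRG1 (-1.21), GREM1 (-1.18), EPCAM (-1.13), JUND (-1.03) and IL6 (-0.97) among those with a lower one. Of the 24 genes with the largest rises and falls in SUM149, CDH11, MT1E, APAF1, WDFY1, CNOT6, EXPH5 and MARC1 had no called difference between the lines, which does not show that they responded alike.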

How the data were processed

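RNA libraries were aligned and quantified by the submitters, with STAR 2.5.2b, Salmon, cutadapt, DESeq2 and hg19 per the submitters' processing notes, settings not stated. The authors deposited variance-stabilised log2 values for 27315 gene symbols in 8 libraries, with a lowest value of 7.12. Since the low values fall on steps of whole reads, the transformation was inverted to normalised counts: in the 4 SUM149 libraries 87.9% to 89.4% of low values lay within 0.1 read of a whole number, against 20% if spread evenly.

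Values were fitted with limma 3.58.1 (lmFit, eBayes with a variance trend) in R 4.3.3 on all 8 libraries, with group as the only term and 4 residual degrees of freedom. A gene entered the fit when 2 or more libraries exceeded the lowest value by 1 or more (12356 genes), and p-values were adjusted by Benjamini-Hochberg. The script was tested on simulated data. Of the genes tested, 91 passed the filter through the siEZH2 SUM149 libraries alone and 44 through their controls alone. Members of a list that did so are named for it, after their values were seen. Samples were grouped by title.

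Named genes were PRC2 and NF-kB subunits, the 12 largest called rises and falls, up to 4 called genes per list with the largest change, and the 6 largest line differences each way; a few of these are not reported here. The samples and the 40 lists (934 entries) were chosen with earlier results of these data known. Mitochondrial mRNAs were not analysed here, nor were the chromatin libraries and the siRelA and siRelB table. Same-numbered SUM149 libraries did not deviate together (correlation -0.117). Promoters are from RefSeq, GRCh38.p14. Python 3.11.15, pandas 2.3.3, numpy 2.4.6 and matplotlib 3.10.9 were used.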

Additional observations from a re-analysis of the deposited data

Results flagged for a closer look

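The response to siEZH2 differed between the lines, by the interaction term of the limma fit, for 2662 of 12356 genes. Among the 6 largest differences with the higher change in the libraries labelled SUM149 were those of VCAN (2.50), KRT6A (1.62), HAS2 (1.61), MEFV (1.60) and FMN1 (1.56), on the log2-like scale. The 6 largest with the lower change there were those of PLAT (-1.73), SAMD9L (-1.65), IFIT2 (-1.54), CPA4 (-1.47), CCL20 (-1.44) and PRLR (-1.39). Each group held 2 libraries, too few to look for a library apart from the rest of its group.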

How the results depend on the processing

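Across the alternatives 5949 to 7354 genes were called in SUM149, against 7163: 5949 to 6474 without 1 library, 6310 with the SUM149 libraries alone, 7011 after quantile normalisation (45.6% of calls higher, against 50.7%) and 6880 on log2(recovered count + 1). Between 81.3% and 99.1% of the main calls were kept with their direction. With the replicate number as a block 7132 genes were called, and no named gene lost its call. A crossed pairing of the numbers, chosen after seeing the data, gave 7278 calls. On log2(recovered count + 1) the count of genes changed at least 1.5-fold rose from 1202 to 2713, and for the line difference from 473 to 948. There genes with the lower change in SUM149 numbered 827, against 1281, and without 1 SUM149 library at a time 832 (without siEZH2 replicate 2) to 1228. IFIT2 turned direction on that scale, with a line difference of 0.19 (limma adjusted p = 0.617). Without a variance trend and after median centring no named gene lost its call. Robust eBayes, the filter without a minimum and the fit of SUM149 alone each ended the call of MBD3, and the last also that of BCL2L2 (limma adjusted p = 0.056). A stricter filter left 15 of the named results without a value. PHF19 and PRLR were called after quantile normalisation (limma adjusted p = 0.025 and 0.0291). Depth limits genes with few reads, whose changes the log2-like scale shrinks.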
